A study of Rattus norvegicus with 53 samples.

Results

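Ndufaf6 and Acad9 are genes of 2 proteins that help to build complex I of the mitochondrial respiratory chain, and they are 2 of the 32576 genes in the expression table of the rat eye. Both rows were taken by their Ensembl identifiers and start positions on the Rnor_6.0 genome. Ndufaf6 (ENSRNOG00000040040) starts on chromosome 5 at 24320786, near a region that the study examined for intraocular pressure, and Acad9 (ENSRNOG00000014178) starts on chromosome 2 at 122782060.

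Complex I takes electrons from NADH, passes them to ubiquinone and pumps protons across the inner mitochondrial membrane. Its subunits come partly from the mitochondrial genome and partly from the nucleus, and a set of assembly factors, which are absent from the finished enzyme, joins them step by step. NDUFAF6 is needed early, for the part of the membrane arm around the subunit ND1. ACAD9 belongs to the acyl-CoA dehydrogenase family of fatty acid oxidation and also works in the complex that assembles another part of the membrane arm. Loss of either protein in humans causes complex I deficiency, and the retina is among the tissues with a high demand for oxidative energy.

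Polyadenylated RNA was sequenced in bulk from whole eyes, frozen at death and later thawed and freed of the outer eye muscles, of heterogeneous stock (HS) rats. HS rats are an outbred population bred from inbred founder strains. The 51 eyes came from different rats and formed a single group, with no control group, and some of the rats had gone through behavioural tests with access to nicotine in another study. The labels do not say which rats these were, nor give the age or sex of any rat. Of the 53 eyes of the series, 2 had been removed by the authors and are not analysed here. A relabelling after comparison with DNA genotypes was recorded for 11 of the 51 eyes. It changed the rat to which an RNA sample was assigned and not its expression values. The animal tags of 39 eyes share a prefix and those of 12 have others, and no source used here says what the prefix stands for.

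The summed expected counts of an eye, which estimate its fragments assigned to genes, ranged from 9109084 to 42146827. Values are given as counts per 1000000 of that sum (CPM), and relations between genes as Pearson's r on log2(CPM + 1). Tests across genes covered the 13844 genes whose median reached 1 CPM, and a gene was called at a Benjamini-Hochberg adjusted p under 0.05. Of 258 genes in lists of complex I, other mitochondrial functions and eye cell types, only 15 could be given a symbol, because symbols were available for 785 genes of the table, nearly all of them genes with a cis-eQTL in the study. Glul, the glutamine synthetase of Muller glia, was at a median of 2895 CPM, and tyrosinase (Tyr), which begins melanin synthesis, at 13.4 CPM. Of blood and immune markers, Hbb ran from 3.71 to 88.1 CPM and Cd68 from 0 to 15.5 CPM. Of stroma markers, Fmod ran from 14.6 to 87.6 CPM and Lum from 0.261 to 15.9 CPM. No photoreceptor, lens or cornea marker could be named, so the composition of the eyes was not checked further.

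The RefSeq table used here gives a sequence window for Acad9 and none for Ndufaf6. The window around the start of Acad9 is shown. RefSeq gives it on GRCr8 at chr2:120871079-120871378, plus strand, from 250 bases before to 50 bases after the gene start. GRCr8 is a later build than Rnor_6.0, so these positions differ from those of the expression table. The capitals mark CTTCCGG, the reverse complement of CCGGAAG, a core recognised by ETS factors such as GABPA, which is known for activating nuclear genes of mitochondrial proteins.
Acad9: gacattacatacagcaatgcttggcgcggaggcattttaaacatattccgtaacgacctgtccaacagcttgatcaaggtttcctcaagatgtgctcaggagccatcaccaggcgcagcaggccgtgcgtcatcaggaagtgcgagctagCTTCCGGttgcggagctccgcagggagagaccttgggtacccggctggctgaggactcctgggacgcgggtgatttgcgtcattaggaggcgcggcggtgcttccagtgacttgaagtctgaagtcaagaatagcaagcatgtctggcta

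The marked bases begin at position -100 from the start, and on either strand CCGGAAG was present in 8.75% of 33469 promoters of this length. The NRF1 motif, GCGC followed after any 2 bases by GCGC (5.58% of promoters), the GC box GGGCGG (33.1%), the E-box CACGTG (6.42%), the cyclic AMP response element TGACGTCA (1.83%), the estrogen-related receptor site TCAAGGTCA (0.433%) and the CCAAT box CCAAT (37.5%) had no match in this window on either strand. These matches describe letters and not bound sites.

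Ndufaf6 was expressed at a low level in every eye. It ranged from 1.67 to 5.88 CPM, with a median of 3.52 CPM and quartiles of 2.85 and 4.22 CPM. The mean was 3.53 ± 0.964 CPM (SD, n = 51), a coefficient of variation of 27.3%. Behind these values were 22 to 131 counts an eye (median 57), and no eye was at 0. The highest eye (5.88 CPM) stood above the next (5.11 CPM), and no gap divided the other eyes into groups.

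Acad9 ranged from 25.2 to 57.5 CPM, with a median of 38.97 CPM and quartiles of 31.1 and 43.8 CPM. The mean was 38.3 ± 7.72 CPM (SD, n = 51), a coefficient of variation of 20.1%. The counts were 299 to 2236 an eye (median 603). In order of level there was a step from 35.9 to 38.6 CPM just below the median, and the highest eye (57.5 CPM) stood above the next (53.1 CPM). Transcript lengths were not used here, so the levels of the 2 genes were not compared with each other.

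**Figure D1:**
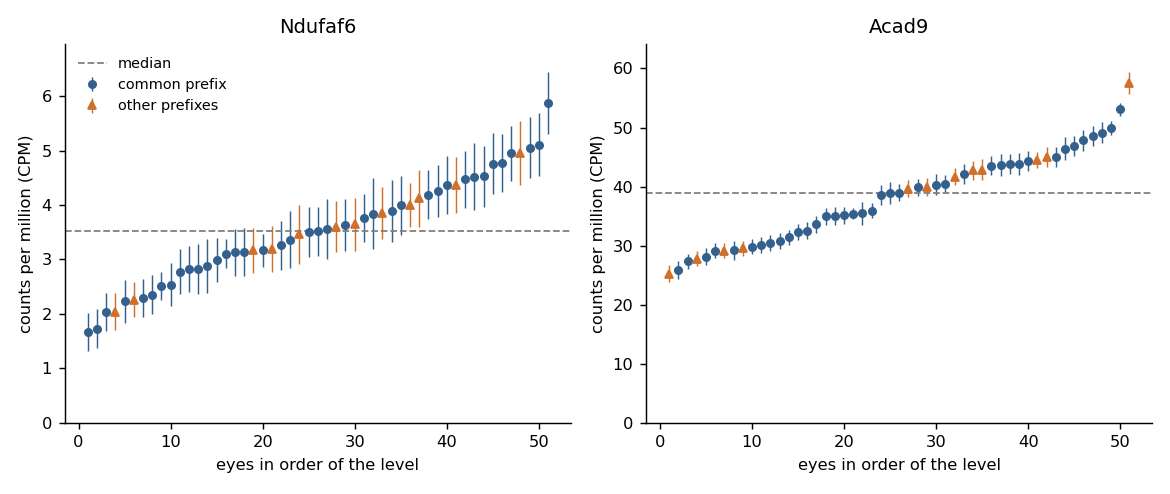
Level of Ndufaf6 (left) and Acad9 (right) in CPM for each of the 51 eyes, ordered by each gene's own level, with bars of plus and minus the square root of the count for counting error only, and the median as a dashed line. Ndufaf6 ran from 1.67 to 5.88 CPM and Acad9 from 25.2 to 57.5 CPM, and the eyes of the common tag prefix (circles) and of the other prefixes (triangles) covered overlapping ranges.

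Ndufaf6 varied less between eyes than most genes of its level. The SD of its log2(CPM + 1) was 0.32, and only 0.5% of the 200 genes nearest to it in median level had a smaller SD, where the median SD of those genes was 0.50. Counting error alone would give an SD of 0.15 at its counts, which is 22.4% of its variance, against a median of 9.04% for these genes. Acad9 was ordinary in this respect. Its SD was 0.29, above 35.5% of the 200 genes nearest to it, whose median was 0.32, and counting error made up 4.09% of its variance.

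Both genes had smaller shares of their variance on the first principal components than the median gene. The first principal component of expression held 18.5% of the variance of all genes above 0, and a median of 14.2% of the variance of a tested gene, but 0.324% of that of Ndufaf6 and 0.00032% of that of Acad9. The first 5 components held 21.5% of the variance of Ndufaf6 and 31.2% of that of Acad9, against a median of 52.8% for tested genes, and 10.95% of tested genes had a smaller share than Ndufaf6 and 21.5% a smaller share than Acad9. With 20 components the shares were 56.5% and 53.6%, against a median of 79.0%. On these 20 components, 7.12% of tested genes had a smaller share than Ndufaf6, and 4.73% a smaller share than Acad9. Values unrelated to the components would have shares of 2%, 10% and 40% on 1, 5 and 20 components. The tested genes were not matched for level in these comparisons.

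The eyes of different tag prefix overlapped in both genes. Ndufaf6 was at 3.52 ± 1.01 CPM in the 39 eyes of the common prefix and 3.56 ± 0.826 CPM in the other 12 (SD), and Acad9 at 38.1 ± 7.30 and 38.8 ± 9.28 CPM. By limma, with Benjamini-Hochberg adjustment, the adjusted p was 0.948 for Ndufaf6 and 0.972 for Acad9, where 0.253% of the 13844 genes were called. Between the 11 relabelled and the other 40 eyes, Ndufaf6 was at 3.45 ± 1.02 and 3.55 ± 0.960 CPM and Acad9 at 35.5 ± 9.68 and 39.1 ± 7.04 CPM. The log2 difference of Acad9 was -0.15 (SE 0.097), with an adjusted p of 0.844 in limma with Benjamini-Hochberg adjustment, and that of Ndufaf6 was -0.038 (SE 0.115), with an adjusted p of 0.973. That test called 0 of 13844 genes (0%), and 795 had an unadjusted p under 0.05.

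The levels of the 2 assembly genes were not detectably related to each other. The eye with the most Ndufaf6 (5.88 CPM) had 35.1 CPM of Acad9, below the median, and the eye with the most Acad9 (57.5 CPM) had 3.61 CPM of Ndufaf6, close to the median. In 25 eyes both genes were on the same side of their medians, and in 24 they were on opposite sides. Pearson's r was 0.024 (95% interval -0.25 to 0.30, n = 51, permutation p = 0.867), and Spearman's rho was 0.047 (permutation p = 0.744). With Benjamini-Hochberg adjustment over the 3 relations of these genes and the mitochondrial transcripts, the permutation p-values were 0.867 and 0.744. When the 2 eyes most distant from the median Ndufaf6 level were left out, r was -0.031, and it was 0.041 within the common prefix and -0.032 within the others. Within an eye, the ratio of Acad9 to Ndufaf6 counts ran from 5.97 to 23.3, with a median of 10.8.

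In the tests across genes, Acad9 stood at rank 12612 by p among the 13843 genes tested against Ndufaf6. It was not called there, where 0.00722% of the genes were, and Ndufaf6 was not called in the test against Acad9, where 0.412% were.

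The sum of the mitochondrial genome's own transcripts varied far more than either gene. The 37 rows of the mitochondrial chromosome (MT) took 0.418% to 8.91% of an eye's counts, with a median of 3.15%. A level in a whole eye reflects both how many cells of a type it holds and the RNA per cell, and bulk samples cannot tell these apart. The eye with the least MT transcripts had 4.12 CPM of Ndufaf6 and 44.96 CPM of Acad9. The eye with the most had 4.52 CPM of Ndufaf6 and 46.4 CPM of Acad9, so at these extremes both genes were above their medians.

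Ndufaf6 and the MT sum had r = -0.14 (95% interval -0.40 to 0.14, n = 51, permutation p = 0.337, adjusted 0.867) and rho = -0.15 (permutation p = 0.294, adjusted 0.744). With the 2 eyes most distant from the median MT sum left out, r was -0.072, and it was -0.19 within the common prefix and 0.073 within the others. Acad9 and the MT sum had r = 0.034 (95% interval -0.24 to 0.31, permutation p = 0.815, adjusted 0.867) and rho = 0.066 (permutation p = 0.646, adjusted 0.744). Without the same 2 eyes r was 0.088, and within the prefixes it was 0.13 and -0.18. The difference between the r of Ndufaf6 and that of Acad9 was -0.17 (two-sided permutation p = 0.352, the values of the 2 genes exchanged within eyes).

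**Figure D2:**
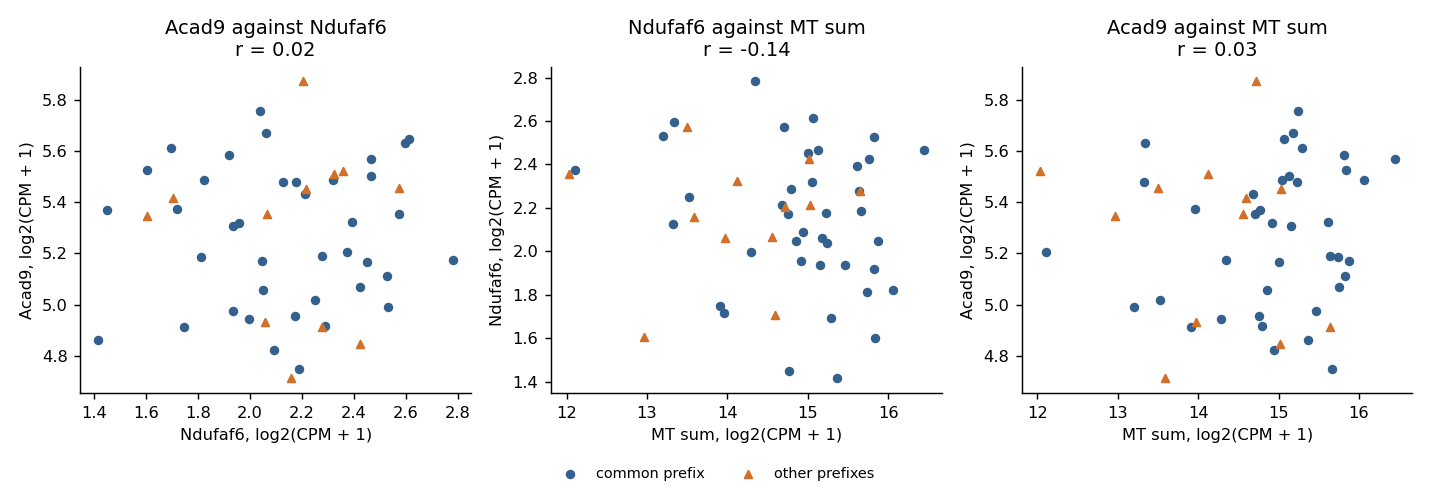
Scatter plots over 51 eyes of Acad9 against Ndufaf6, Ndufaf6 against the MT sum and Acad9 against the MT sum, all as log2(CPM + 1), with eyes of the common tag prefix as circles and the others as triangles. The points form no line in any panel, with r of 0.024, -0.14 and 0.034.

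A large share of the genes of the eye did move with the MT sum. Of 13829 genes outside the MT chromosome, 6275 (45.4%) were called in limma with Benjamini-Hochberg adjustment, 2688 (19.4%) higher and 3587 (25.9%) lower where the MT sum was higher. Ndufaf6 (adjusted p = 0.461, log2 difference per SD of the MT sum -0.044, SE 0.047) and Acad9 (adjusted p = 0.862, log2 difference 0.0097, SE 0.041) were not among them. They stood at ranks 10795 and 13033 by p. The MT rows are part of the total, and the split into higher and lower genes depended on the scaling. With the MT rows left out of the total, 3014 called genes were higher and 2308 lower. With median-of-ratios scaling 3050 were higher and 2887 lower. With 5 expression components as terms 138 genes were called with the MT sum, and with 20 components 0 were (1121 at an unadjusted p under 0.05).

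Single MT rows were also examined. Of the 37 rows, 15 had a median of at least 1 CPM and 22 had a median of 0, and the rows are given by start position alone because the table holds no symbols for them. The r with Ndufaf6 ran from -0.24 (row starting at 1094, median 604 CPM) to -0.0036, and 0 of 15 rows had an r above 0. The r with Acad9 ran from -0.035 to 0.12, and 13 of 15 were above 0. No row was called with either gene in limma, the smallest adjusted p being 0.421 for Ndufaf6 and 0.889 for Acad9. With median-of-ratios scaling the median r over the rows was -0.070 for Ndufaf6 and 0.12 for Acad9. The rows share their eyes and their place in the total count, so 15 like signs are not 15 independent results.

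Of the nuclear subunits of complex I, 2 of 36 listed genes could be named, and neither was called with Ndufaf6 or Acad9. Ndufb2 (11.5 to 73.4 CPM, median 41.7) had r = 0.29 with Ndufaf6 and 0.17 with Acad9. Ndufb8 (61.2 to 202 CPM, median 122) had r = 0.20 and 0.12. Of the 20 other assembly factors listed and of 11 regulators of mitochondrial biogenesis, none could be named.

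From the other respiratory complexes, the complex III core gene Uqcrc2 had r = -0.20 with Ndufaf6 and 0.12 with Acad9, and the ATP synthase subunit gene Atp5mc2 had 0.31 and 0.026. Acad9 is related in sequence to other acyl-CoA dehydrogenases, which carry out the first step of the breakdown of fatty acids and of branched amino acids, and none of the 4 that could be named was called with it. Its r was -0.20 with the medium-chain enzyme gene Acadm (114 to 313 CPM), 0.23 with the branched short-chain enzyme gene Acadsb (7.53 to 40.8 CPM), -0.015 with Acad11 and 0.12 with the isovaleryl-CoA enzyme gene Ivd. With Ndufaf6 the same genes had -0.024, -0.25, -0.34 and 0.25. The largest of these by size, Acad11 with Ndufaf6, had an adjusted p of 0.307 in limma. In all, 0 of the 14 tested genes of the fixed lists were called with Ndufaf6 and 0 with Acad9, near the shares over all genes of 0.00722% and 0.412%.

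A wider set of 43 nuclear genes of mitochondrial proteins was collected from the named genes after first values had been seen, so it was given no test of its own. It holds respiratory chain and carrier genes, mitochondrial translation genes, enzymes and upkeep genes, and 0 of 43 were called with either assembly gene, near the shares of 0.00722% and 0.412% over all genes. With Ndufaf6 their r ran from -0.34 to 0.39, with a median of 0.037 against 0.0034 for all genes tested. The highest was Aldh2 (r = 0.39, adjusted p = 0.267), a mitochondrial aldehyde dehydrogenase. With Acad9 the r ran from -0.36 to 0.38, with a median of 0.12 against 0.065 for all genes, and of 0.029 against 0.0040 when eyes were scaled by median-of-ratios factors. At its ends were Ucp2, an inner membrane carrier (r = -0.36, adjusted p = 0.205), and Mrpl18, a protein of the large mitochondrial ribosomal subunit (r = 0.38, adjusted p = 0.176).

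**Figure D3:**
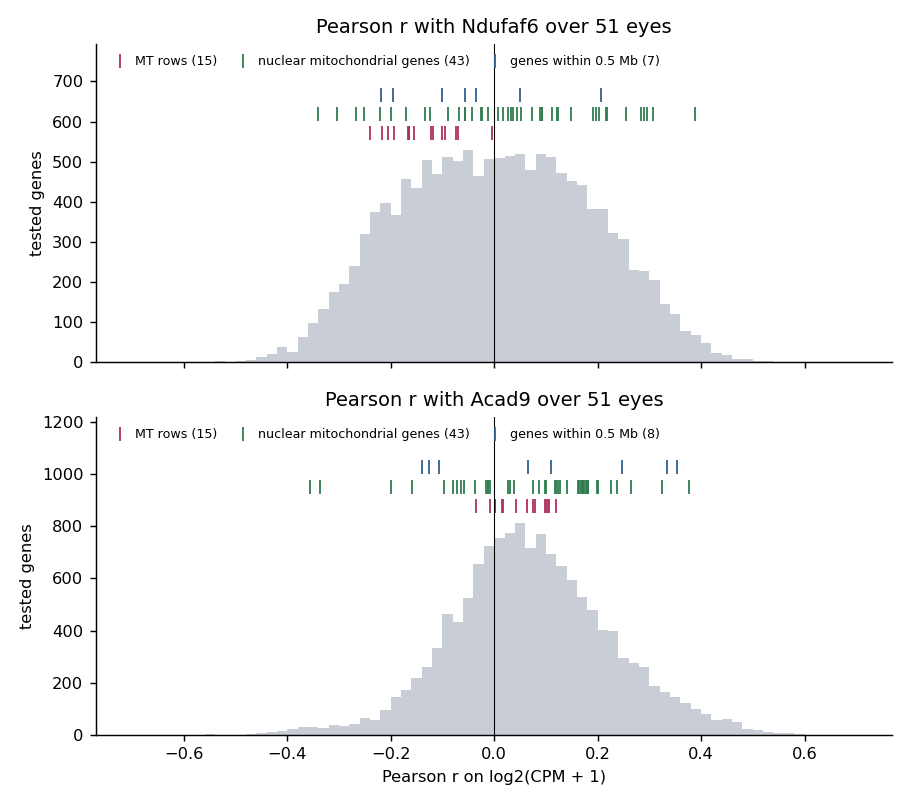
Histograms of Pearson's r over 51 eyes between log2(CPM + 1) of Ndufaf6 (top) or Acad9 (bottom) and each other tested gene, with ticks for the MT rows, the 43 nuclear genes of mitochondrial proteins and the tested genes within 0.5 Mb. The ticks of the nuclear and nearby genes spread over both sides of each histogram, from -0.34 to 0.39 for Ndufaf6 and from -0.36 to 0.38 for Acad9. The MT rows lay between -0.24 and -0.0036 for Ndufaf6 and between -0.035 and 0.12 for Acad9. The medians of all genes are 0.0034 for Ndufaf6 and 0.065 for Acad9.

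Within 0.5 Mb of the start of Ndufaf6 there were 12 other gene starts, of which 7 were tested and 0 called (0.00722% over all genes), with r from -0.22 to 0.21. The nearest named one, Plekhf2, a gene of an endosomal protein that starts at 24255606, had r = -0.035 (adjusted p = 0.925). Around Acad9 there were 11 starts, of which 8 were tested and 0 called (0.412% over all genes), with r from -0.14 to 0.35 and a smallest adjusted p of 0.201. Anxa5, an annexin that binds phosphatidylserine, had r = -0.11 (adjusted p = 0.920).

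Both genes had few strong partners in the whole table. Ndufaf6 reached an r of at least 0.5 in size with 12 genes, 8 of them positive, and Acad9 with 49 genes, 47 of them positive. The median over all 13844 tested genes was 918.5 such partners, with quartiles of 154 and 2265, and 7.45% of genes had fewer than Ndufaf6 and 15.7% fewer than Acad9. With median-of-ratios scaling the numbers were 17 and 9, against a median of 831. These counts are a description, since all genes share the same eyes and totals. The genes were not matched for level, and counting error was 22.4% of the variance of Ndufaf6.

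**Figure D4:**
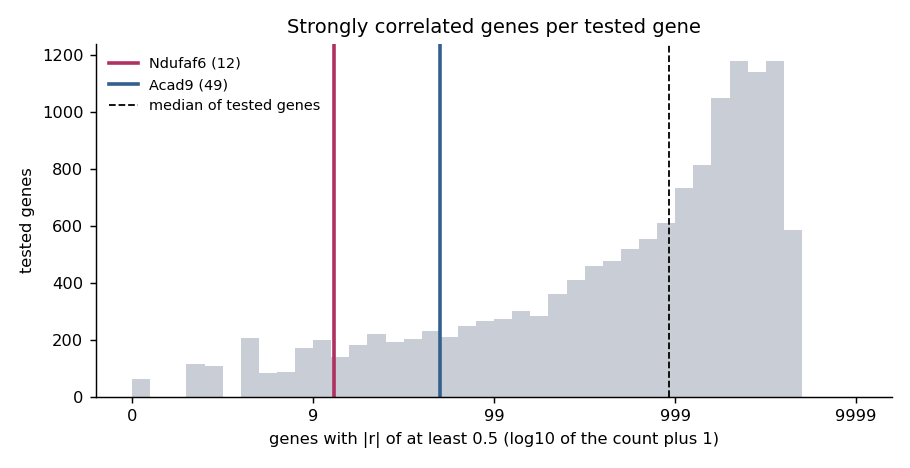
Number of tested genes, by how many other tested genes correlate with them at an r of at least 0.5 in size, on a log10 scale of that number plus 1, for 13844 genes over 51 eyes. Ndufaf6 with 12 and Acad9 with 49 lie far to the left of the median of 918.5, and the genes were not matched for level.

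Against Ndufaf6, limma called 1 of 13843 genes (0.00722%, Benjamini-Hochberg adjusted), and 1838 had an unadjusted p under 0.05. The called gene, ENSRNOG00000020770 on chromosome 10 at 89578212, ran from 92.0 to 286 CPM and had r = 0.60 (adjusted p = 0.0436). It was the only call, and the count was 0 when the MT rows were left out of the total, with the prefix as a term, without the relabelled eyes and without the 3 deepest eyes.

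Among named genes, the most positive with Ndufaf6 were Impa2, Fuz, Lrwd1, Akt1s1 and Rras, and none of them was called. Impa2, an inositol monophosphatase gene (4.47 to 17.4 CPM), had r = 0.54 (adjusted p = 0.156). Fuz, a planar polarity gene needed for cilia (7.15 to 32.2 CPM), had r = 0.53 (adjusted p = 0.156). Lrwd1, whose protein binds the origin recognition complex (9.18 to 31.8 CPM), had r = 0.52 (adjusted p = 0.158). With the 2 eyes of most distant Ndufaf6 levels left out these r were 0.47, 0.41 and 0.46.

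Akt1s1, a component of the growth regulator mTORC1, and Rras, a small GTPase, each had r = 0.44. They start on chromosome 1 at 100845563 and 101012822, on either side of Fuz at 100891866, so these 3 of the 5 lie together. Only genes with a symbol were listed. Among all tested genes, Fuz, Akt1s1 and Rras ranked 4, 40 and 47 by positive r. The most negative named genes were AABR07068127.1 (r = -0.48), the coactivator gene Ncoa7 (-0.41), the myosin gene Myo9a (-0.41), the coiled-coil gene Ccdc77 (-0.40) and the ubiquitin ligase gene Trim33 (-0.40). Their adjusted p-values in limma, with those of the positive genes, lay between 0.156 and 0.251. With Acad9 the 5 positive genes had r between -0.16 and 0.16.

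Against Acad9, limma called 57 of 13843 genes (0.412%, Benjamini-Hochberg adjusted), 54 (0.39%) higher and 3 (0.0217%) lower where Acad9 was higher, and 1559 had an unadjusted p under 0.05. The 57 lay on 18 chromosomes. Their r ran from 0.49 to 0.61 in size. The strongest was ENSRNOG00000008144 on chromosome 10 at 39109522 (23.2 to 99.9 CPM, r = 0.61, adjusted p = 0.0165). Of the 3 lower ones the strongest was ENSRNOG00000031506 on chromosome 5 at 152325871 (17.6 to 267 CPM, r = -0.55, adjusted p = 0.0186).

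These calls depended on how the eyes were scaled. With median-of-ratios factors in place of the total, 0 genes were called against Acad9 and 1349 had an unadjusted p under 0.05, and all 57 kept their sign with a median size of r of 0.45 in place of 0.52. Across all genes 68.2% had an r above 0 with Acad9 under the total and 50.9% under median-of-ratios factors. Acad9 itself had r = -0.35 with the log2 ratio of an eye's total to its median-of-ratios factor (permutation p = 0.0106, 0.0634 adjusted over 6 relations) and rho = -0.33 (permutation p = 0.0175, 0.105 adjusted). That r was -0.29 without the 2 farthest eyes, and Ndufaf6 had -0.057. With the percent of counts in the 50 highest genes of an eye, Acad9 had r = -0.30 (permutation p = 0.0351, 0.105 adjusted) and rho = -0.26 (permutation p = 0.0689, 0.207 adjusted), with r = -0.22 without the 2 farthest eyes. The total of an eye enters the CPM of Acad9 and both of these measures, and the permutations do not allow for that. These p-values are therefore no test of Acad9 apart from the shared total. The part of the scaling in the calls was not tested further. A fit with the ratio of total to factor as a term, chosen after seeing the data, called 0. The count was also 0 without the 11 relabelled eyes (1097 at an unadjusted p under 0.05) and in the 39 eyes of the common prefix alone (730).

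The called genes with a symbol were Anxa8, Aspg and Lrrfip1. Anxa8, an annexin that binds membranes in the presence of calcium, ran from 233 to 783 CPM with a median of 463, and had r = 0.55 with Acad9 (log2 change per SD of Acad9 0.21, SE 0.045, adjusted p = 0.0247). Aspg, an asparaginase gene, ran from 7.35 to 49.5 CPM, and had r = 0.52 (0.28, SE 0.065, adjusted p = 0.0293). Lrrfip1, whose protein binds nucleic acids and the LRR region of flightless, ran from 26.9 to 80.4 CPM with a median of 49.1, and had r = 0.49 (0.16, SE 0.040, adjusted p = 0.0490). The call of Lrrfip1 was also lost without the 3 deepest eyes (adjusted p = 0.0559) and with no filter on low genes (adjusted p = 0.0694). The next named genes, Mxd1, a partner of MAX that represses transcription (r = 0.48, adjusted p = 0.0639), and Plet1, an epithelial surface protein gene (r = 0.48, adjusted p = 0.0554), were not called. Plet1 passed with the MT rows left out of the total (adjusted p = 0.0374), with the log2 total as a term (0.0458) and without the 3 deepest eyes (0.0495), and Mxd1 with the MT rows left out (0.0465).

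Within the 39 eyes of the common prefix the r of Anxa8, Aspg and Lrrfip1 with Acad9 were 0.41, 0.37 and 0.49, and in the other 12 eyes 0.83, 0.81 and 0.53. The differences between the prefixes had permutation p-values of 0.122, 0.116 and 0.857, or 0.813, 0.813 and 0.883 after Benjamini-Hochberg adjustment over the 20 named partners of both genes. In the plot, the eye highest in Acad9 was also the highest in Anxa8 and in Aspg, and it is 1 of the 11 relabelled eyes. Without the relabelled eyes the r were 0.52, 0.28 and 0.43. In those 40 eyes the adjusted p of Anxa8 in limma was 0.284. The promoter windows of these 3 genes did not contain CCGGAAG, which was present in 8.75% of all promoters. The GC box (33.1% of promoters) had 1 match in the window of Aspg, 4 in that of Lrrfip1 and 0 in that of Anxa8.

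**Figure D5:**
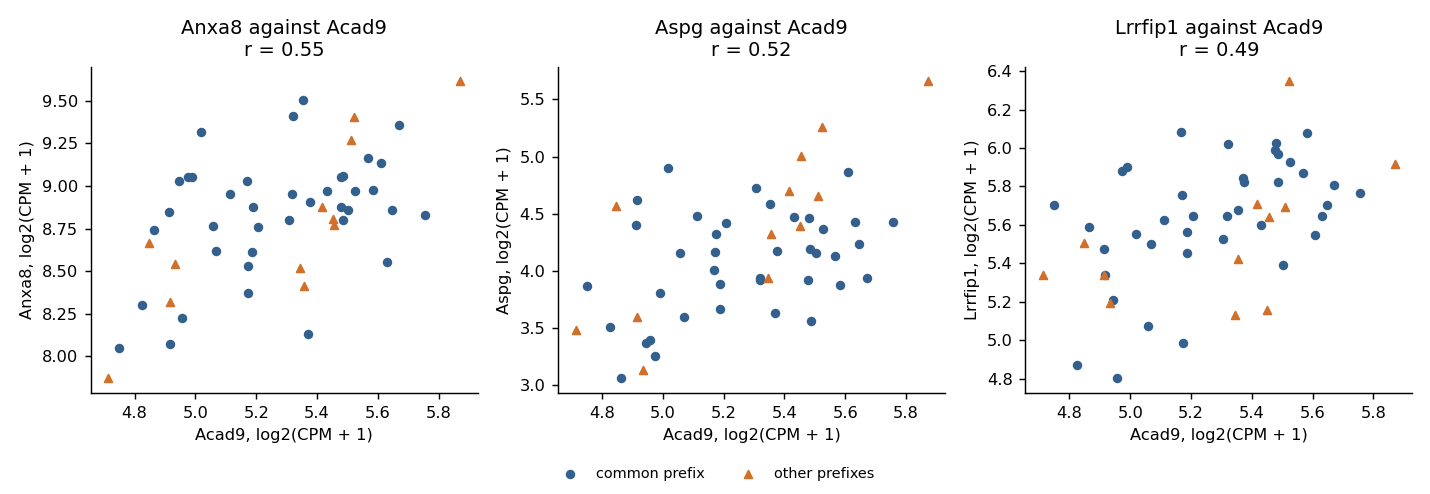
Anxa8, Aspg and Lrrfip1 against Acad9 over 51 eyes, all as log2(CPM + 1), with eyes of the common tag prefix as circles and the others as triangles. Each cloud slopes upward, with r of 0.55, 0.52 and 0.49.

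The most negative named genes with Acad9 were Ndrg1, a stress-responsive gene (r = -0.40), the focal adhesion gene Zyx (-0.38), the ciliary chaperonin-like gene Bbs12 (-0.38), Ucp2 (-0.36) and Pbld1 (-0.35). None was called, and the smallest adjusted p among them was 0.133. Bbs12 lies on chromosome 2 like Acad9, starting at 124054282, farther away than the nearby genes given above. Its r with Acad9 was -0.56 with 5 expression components as terms and -0.68 with 20. Bbs12 was not called there in limma (adjusted p = 0.174 and 0.0962), though these were the smallest of each scan. The r of Ndrg1, Zyx, Ucp2 and Pbld1 was smaller in size with these terms. For Bbs12 it was -0.32 without the 3 deepest eyes. The cause was not tested. The 20 named partners were found in the same 51 eyes, and the values of Acad9 with the partners of Ndufaf6 are therefore no separate test.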

How the data were processed

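RNA from whole eyes was sequenced by the authors, who aligned paired-end reads to Rnor_6.0 with STAR, matched eyes to DNA genotypes with GATK ASEReadCounter and estimated gene counts with RSEM. No source used here gives the tool versions, the annotation or the strand setting. Per gene and eye, the authors deposited the log2 of the expected count plus 1. That scale was read from the values: of those that came to 0.5 to 50 after undoing the log2, 89.8% were whole to within 0.01.

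Counts were scaled to 1000000 per eye and taken as log2(CPM + 1). The members, lists and tests were chosen with earlier results of these data known. Symbols were set by start position from the authors' tables of cis-eQTL genes (778) and loci (8 within 500 bp), of which only positions were used. Columns of p-values and effects there were not used. Named genes are the members, their 5 most positive and 5 most negative named correlates, listed genes and neighbours. Other named genes are given as ends of a list, apart from Cldn16. The values of another surface epithelium gene are not reported here.

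Associations across genes were fitted in R 4.3.3 by limma 3.58.1 (trend option), using the standardised log2 level of the member or MT sum as predictor. Correlations have two-sided p-values from 100000 permutations. Where terms were added, relations of the 2 genes and the MT sum were instead tested by a t-test on residuals. The values have the counting error of 9109084 to 42146827 fragments an eye, and eyes differ as single animals, with no technical replicates. Alternatives covered scaling, pseudocount, filter, components, prefix, depth and left-out eyes. Principal components came from inverse normal values of genes above 0 in any eye. The fits were first checked on simulated counts, with noise drawn independently for each gene. False calls among correlated genes were not examined there. Python 3.11.15 ran the other steps, with matplotlib 3.10.9, pandas 2.3.3, scipy 1.17.1 and numpy 2.4.6.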

Additional observations from a re-analysis of the deposited data

How the results depend on the processing

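No paired analysis was possible because the eyes form 1 group and their replicate numbers only name them. Alternatives that split the prefixes or add the ratio of total to size factor as a term were chosen after seeing the data. No relation of the 2 genes or the MT sum passed its test except in the values as deposited, which hold no scaling for depth, where Ndufaf6 and Acad9 had r = 0.57. Small r changed sign: for Ndufaf6 with Acad9, to -0.0063 with median-of-ratios scaling, -0.12 and -0.20 with 5 and 20 components as terms, -0.093 without the relabelled eyes, -0.031 without the 2 farthest eyes and -0.032 in the other prefixes alone. For Ndufaf6 with the MT sum, r was 0.11 as deposited, 0.082 with 5 components and 0.073 in the other prefixes. For Acad9 it was -0.13 with 5 components, -0.025 with 20 and -0.18 in the other prefixes. The difference of these r was 0.21 with 5 components.

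Calls against Acad9 (57) became 0 with median-of-ratios scaling, with 5 or 20 components, without the relabelled eyes, in the common prefix alone and with the ratio as a term. They became 96 with the MT rows left out of the total, 37 with no filter on low genes and 12681 as deposited. Calls against Ndufaf6 (1) became 0 without the MT rows in the total, with the prefix as a term, with 5 or 20 components, without the relabelled or the 3 deepest eyes and in the common prefix alone, and 10585 as deposited. Calls with the MT sum (6275) became 3551 as deposited, 138 with 5 components and 0 with 20. Calls between the prefixes (35) became 6 with median-of-ratios scaling, 83 without the MT rows in the total, 1 as deposited, 0 with 20 components, 6 without the 3 deepest eyes and 11 with no filter. The cause of these changes was not tested.

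The SD of log2 values was 0.54 for Ndufaf6 and 0.54 for Acad9 as deposited, and 0.41 for Ndufaf6 with a pseudocount of 0.1. As deposited, the r with Ndufaf6 was 0.053 for AABR07068127.1, 0.31 for Ncoa7, 0.080 for Myo9a and 0.18 for Trim33, and the r with Acad9 was 0.51 for Ndrg1 (0.16 with 20 components), 0.41 for Zyx, 0.088 for Bbs12, 0.45 for Ucp2 and 0.029 for Pbld1. Counting error made up 22.4% of the variance of Ndufaf6 and 4.09% of that of Acad9.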

Other observations

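Surface epithelium genes are given here for their values with Acad9. A list of 12 genes of cell junctions and surface epithelium was collected from the named genes after Anxa8 and Plet1 had been seen. It holds Plet1 itself and was therefore given no test. The r with Acad9 was above 0 in 12 of 12, against 68.2% of all genes tested, and ran from 0.016 to 0.48. The median was 0.33 against 0.065 for all genes tested. With median-of-ratios scaling the median was 0.24 against 0.0040. The 12 genes were measured in the same eyes, so 12 like signs are not 12 independent results. In limma with Benjamini-Hochberg adjustment 0 of the 12 were called (0.412% over all genes), and the nearest were Plet1 (r = 0.48, adjusted p = 0.0554), the epithelial transcription factor gene Elf3 (r = 0.46, adjusted p = 0.0667), and the uroplakin gene Upk1b (r = 0.41, adjusted p = 0.104). The E-cadherin gene Cdh1 ran from 110 to 282 CPM and had r = 0.39 (adjusted p = 0.155), and the desmosomal cadherin gene Dsc2 had r = 0.37 (adjusted p = 0.181). Lowest in the list were Itga2 (r = 0.016), Lamb3 (0.14) and Cxadr (0.20). With Ndufaf6 the same 12 genes had a median r of 0.11, 9 of them above 0, against 50.5% of all genes tested. The list is not complete. The junction gene Cldn16 has a symbol and is not in it, and its r was 0.020 with Acad9 and -0.17 with Ndufaf6. How much surface epithelium each eye held was not measured, and its part in these values was not tested.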
